A study of Oryza sativa with 6 samples.

Results

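Of the 37938 transcribed loci in the deposited table, 828 (2.18%) carried no rice gene ID, and these are described here. The choice used only the empty ID field. A locus without an ID is listed only where reads were found, so its level did enter the listing. Reads in 1 library could be enough, so root type and salt patterns are not fully independent of the listing. The other 37110 loci carry a RAP gene ID. Messenger RNA came from roots of IR29, a rice (Oryza sativa) cultivar that is salinity sensitive in the submitters' words, and the libraries keep strand information with inserts of 200 bp. There was 1 library in each of 6 groups: S-type lateral roots, L-type lateral roots and nodal roots after 7 days of 50 mM NaCl, and the same 3 root types from control plants. All plants had days of 30 °C and nights of 25 °C. No label names the number of plants in a library, so nothing here measures the spread between plants. In bulk tissue, fewer cells of a type and less RNA per cell cannot be told apart.

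Nodal roots are the shoot-borne axes of the rice root system, and S-type and L-type laterals are its short and its longer, branching laterals. When reads are assembled on a genome, loci appear where the annotation lists no gene. Such loci are known to include long noncoding RNAs, transcripts of transposable elements, coding genes missing from an annotation, and ends of longer transcripts that continue past an annotated gene. They usually lie low in abundance and often differ in level between tissues. The deposited tables give no sequence, exon structure or strand, so these kinds were not told apart, and the files give no function for the loci named here.

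Each library held between 3839177 and 4249872 reads on loci, and the loci without an ID held between 0.368% (control nodal) and 0.576% (salt L-type) of them. Levels below are reads scaled to a common library of 3998627 reads (scaled reads). A list of 3 loci commonly cited as root-expressed summed to between 6863.8 and 31462.0 scaled reads in every library, although the lowest of the 3 stood at 1.3 in the salt S-type library. A list of 16 loci commonly cited for leaf photosynthesis summed to 45.1 in salt S-type, 50.0 in control S-type, 1458.8 in salt L-type, 162.2 in control L-type, 3544.9 in salt nodal and 104.8 in control nodal roots. Of these 16, none stood at 0 in the salt nodal and salt L-type libraries, and between 3 and 5 did in the other libraries. The part of this difference in the results for salt nodal and salt L-type roots below was not tested.

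The loci without an ID were low in level and short. Their median level over the 6 libraries was 9.78 scaled reads, against 39.4 for ID loci with at least 1 read. The highest stood at 509.7 scaled reads on average, against 25811 for the highest ID locus. On the FPKM scale, which adjusts for length, the medians were 4.11 FPKM for loci without an ID and 7.27 FPKM for ID loci with a read. The gap between the groups was thus smaller in FPKM. A mean of at least 100 scaled reads was reached by 39 loci without an ID, and of at least 200 by 14. The 10 highest together held 15.9% of their summed level. Their median span was 979 bp, against 2557 bp for ID loci, counting loci that share their deposited span with no other locus.

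Every locus without an ID had reads somewhere: the lowest sum over the 6 libraries was 7 reads, while 10623 ID loci had no read in any library. Reads were seen in all 6 libraries for 469 of the 828 and in a single library for 5. Because an assembled locus is listed only where reads were found, this difference follows from how the list was made. For the same reason a larger share of them, 533 loci or 64.4%, passed the minimum for the fits (10 reads in at least 2 libraries) than of ID loci (51.0%). The other 295 were too low to be tested.

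XLOC_032363 (chr10:3825197-3826539, 5021 bp from Os10g0160000) had the highest mean. It stood at 740.1 scaled reads in salt S-type, 697 in control S-type, 622 in salt L-type, 362 in control L-type, 513 in salt nodal and 124 in control nodal roots. Only the control nodal library stood well below the rest. XLOC_008036 (chr2:10343841-10347609, 1491 bp from Os02g0279800) was highest in nodal roots. It stood at 2.58 scaled reads in salt S-type, 150.1 in control S-type, 175 in salt L-type, 117 in control L-type, 812 in salt nodal and 1011 in control nodal roots. In the salt S-type library it had 2 reads, against 126 in the control S-type library. XLOC_012862 (chr3:16372114-16378597, 126 bp from Os03g0402200) varied least among the 10 highest, with 135 and 204 scaled reads in salt and control S-type, 182 and 223 in salt and control L-type, and 315 and 410.1 in salt and control nodal roots. It was highest in nodal roots under both treatments.

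**Figure D1:**
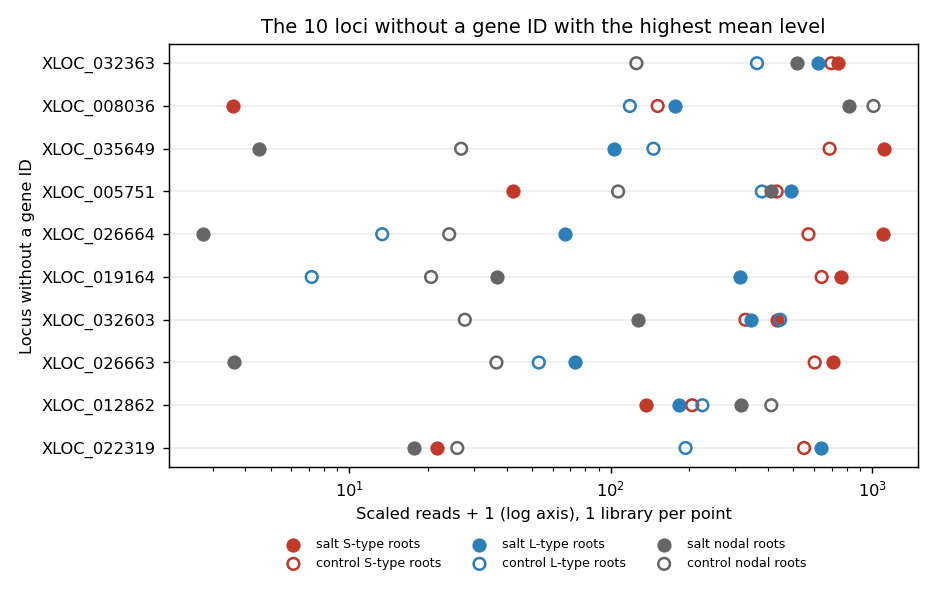
Scaled reads plus 1 (log axis) of the 10 loci without a gene ID with the highest mean level, 1 point per library; filled points are salt and open points control libraries, coloured by root type. XLOC_035649, XLOC_026664 and XLOC_026663 lie highest in both S-type libraries and lowest in salt nodal roots, while XLOC_008036 and XLOC_012862 lie highest in nodal roots.

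The loci without an ID lay on all 12 chromosomes, from 1.54% of the loci on chromosome 3 to 3.08% on chromosome 11. Coordinates are those of the deposited table (build IRGSP-1.0 per the submitters' processing notes), which does not say whether starts count from 0 or 1. The table gives 1 span to loci that overlap. For 747 of the 828 the span was their own, 55 shared it with an ID locus and 26 only with other loci without an ID. In a shared span the coordinates are those of the whole span, which held up to 31 loci.

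Compared with ID loci, a larger share of the own-span loci without an ID lay within 200 bp of an ID locus, while their median distance was larger. In all, 305 of 828 (36.8%) lay within 1 kb of an ID locus or on a span shared with one, against 58.2% of ID loci measured to the next ID locus. Counting only loci with their own span, the shares were 33.1% (247 of 747) and 34.6%, while within 200 bp they were 12.1% and 7.29%. Within 50 bp the order was reversed, with 0.669% and 1.54%. The median distances were 2242 bp and 1789 bp. Still, 88 loci without an ID lay over 10 kb from any ID locus, the farthest at 56933 bp.

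**Figure D2:**
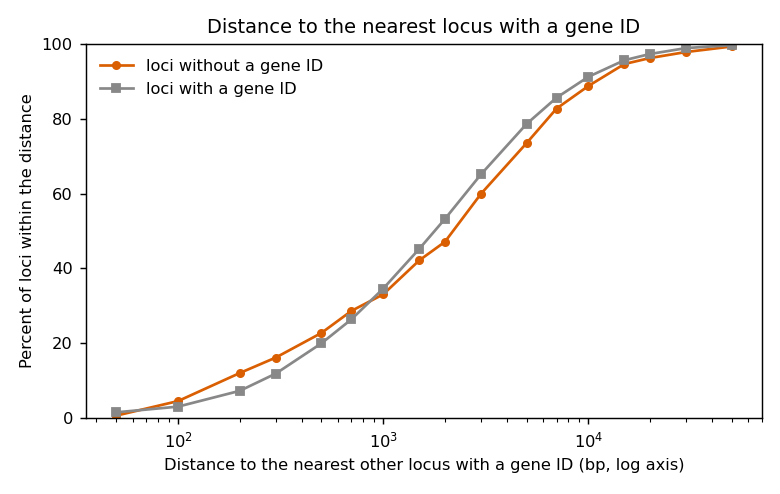
Cumulative percent of loci (vertical axis) within a distance in bp (log axis) of the nearest other locus with a gene ID, for loci with their own span; orange circles are loci without a gene ID and grey squares loci with one. The orange curve lies above the grey one from 100 to 700 bp, as at 200 bp (12.1% and 7.29%), and below it at 50 bp and from 1 kb on.

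Near neighbours were more often in the same run of locus numbers. These numbers ascend along each chromosome and restart once on each of the 12, so every locus belongs to a first or a second run of numbers. The files do not say what the runs stand for. Of the 247 own-span loci without an ID within 1 kb of an ID locus, 160 (64.8%) had their nearest ID locus in the same run, against 42.3% (3475 of 8209) among ID loci. Of those 160, 108 (67.5%) lay on the side towards which the neighbour would end if the first run were the forward strand and the second the reverse strand, which was not tested, and 52 on the opposite side. Among ID loci the same share was 56.7% (1972 of 3475).

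The level of the near neighbours was mostly higher. In 56 pairs up to 500 bp apart in the same run, the locus without an ID stood below its neighbour in FPKM in 37, with a median ratio of 0.562. At any distance, the FPKM medians were 4.11 for loci without an ID and 7.27 for ID loci with a read. The lower level is thus not particular to near pairs. In the 44 of these pairs that passed the minimum for the fits on both sides, the differences of a locus and its neighbour were set side by side. Across these pairs the salt minus control difference in S-type roots of a locus and that of its neighbour had a Pearson r of 0.67, against 0.00 in 520 such pairs of ID loci. It was 0.65 without the 2 loci farthest from the median. For salt in nodal roots r was 0.26 and 0.15, for salt in L-type roots 0.33 and 0.09, and for S-type minus nodal under control 0.46 and 0.22, pairs with a locus without an ID first. The 2 loci of a pair share libraries and depth, and pairs of loci are not independent replicates, so these values are a description. The direction was the same in 24 of 44 pairs (54.5%) for salt in S-type roots, beside 53.7% of the pairs of ID loci, and in 27 of 44 (61.4%) for S-type minus nodal, beside 53.1%. For S-type minus nodal, r was 0.43 in 60 same-run pairs over 2000 bp apart and 0.41 in 17 pairs up to 500 bp apart in different runs, so it was not larger only for near pairs in the same run.

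Some loci without an ID stood beside each other. There were 55 groups of neighbours with gaps of at most 10 kb and no ID locus between them, holding 122 loci, and 10 of the groups had at least 3. In 31 adjacent pairs that passed the minimum for the fits, the S-type minus nodal differences under control had a Pearson r of 0.66 across pairs, again as a description of 1 set of libraries. The 3 groups described next were chosen after their values were seen.

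On chromosome 8, XLOC_026663 (chr8:4278224-4278958), XLOC_026664 (chr8:4283651-4284389) and XLOC_026665 (chr8:4286872-4287114) followed each other in 1 run, and all 3 were highest in S-type roots. XLOC_026663 stood at 707 scaled reads in salt S-type, 602 in control S-type, 71.7 in salt L-type, 52.0 in control L-type, 2.62 in salt nodal and 35.5 in control nodal roots. XLOC_026664 stood at 1102 and 569.5 in salt and control S-type, 66.0 and 12.3 in salt and control L-type, and 1.75 and 23.1 in salt and control nodal roots. XLOC_026665 stood at 87.7 and 89.4 in salt and control S-type, 8.60 and 55.6 in salt and control L-type, and 0 and 0.888 in salt and control nodal roots. In all 3 both S-type libraries stood above the 4 others. XLOC_026661 (chr8:4263844-4265251), on the far side of Os08g0172800, showed the same order, with 157 and 120.3 scaled reads in salt and control S-type, 18.2 and 15.9 in salt and control L-type, and 1.75 and 0 in salt and control nodal roots. Os08g0172800 itself had no reads. The next ID locus, Os08g0173300, 6028 bp from XLOC_026664 and in the same run, also stood highest in S-type roots, with 1185 and 753.0 scaled reads under salt and control, 65.0 and 74.1 in L-type and 1.7 and 23.1 in nodal roots.

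**Figure D3:**
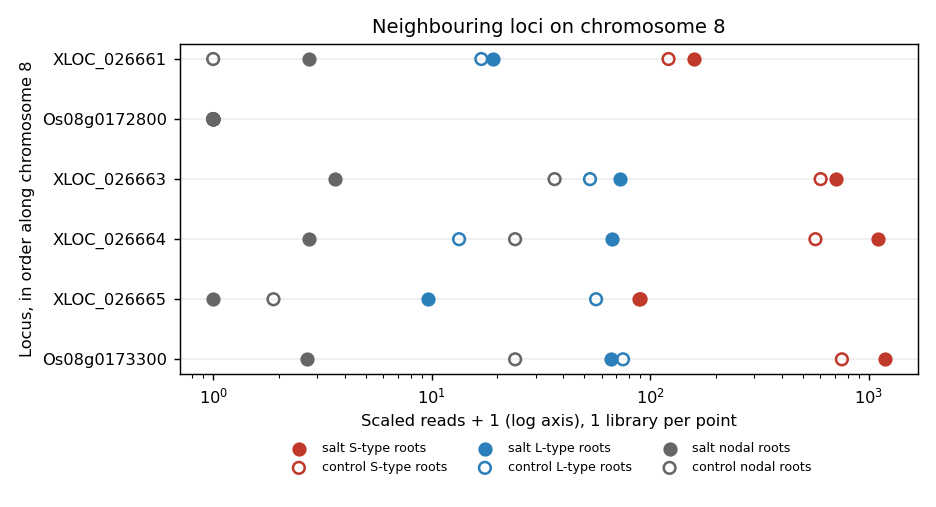
Scaled reads plus 1 (log axis) of 4 loci without a gene ID and 2 ID loci in their order along chromosome 8, 1 point per library; filled points are salt and open points control libraries. In the 5 loci with reads the S-type points lie to the right of all others; Os08g0172800 lies at 0 reads in every library.

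On chromosome 12, XLOC_037429 (chr12:13871759-13874821), XLOC_037430 (chr12:13874991-13876785) and XLOC_037431 (chr12:13877174-13877551) were highest in salt nodal roots. XLOC_037429 stood at 24.5 and 32.2 scaled reads in salt and control S-type, 196 and 162 in salt and control L-type, and 362 and 4.44 in salt and control nodal roots. XLOC_037430 stood at 12.9 and 10.7 in salt and control S-type, 59.3 and 8.82 in salt and control L-type, and 169 and 2.66 in salt and control nodal roots. The 3 had between 1 and 5 reads in the control nodal library. XLOC_037431 was the lowest, with 41.9 scaled reads in salt nodal roots against 0.888 in control nodal roots and 18.2 in salt L-type roots against 0.882 in control L-type roots. The next ID locus, Os12g0431100, lay in the other run, 1596 bp from XLOC_037431, and had 42.8 and 3.6 scaled reads in salt and control nodal roots and 187.4 and 60.8 in salt and control L-type roots. The trio was thus high in libraries where the photosynthesis list was also high, except that XLOC_037429 was about as high in control L-type roots.

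On chromosome 6, 5 loci without an ID, XLOC_020931 to XLOC_020935, lay between Os06g0255200 and Os06g0255300. All 5 and both ID loci were in the same run, XLOC_020931 began 99 bp after Os06g0255200 and XLOC_020935 ended 73 bp before Os06g0255300. None of the 4 that passed the minimum for the fits was past the rule of size for salt in any root type. XLOC_020934 lay just short of the 2-fold limit in L-type roots, where it was lower under salt. XLOC_020931 stood at 155 and 102 scaled reads in salt and control S-type, 80.3 and 59.96 in salt and control L-type, and 164 and 129 in salt and control nodal roots. In both treatments its L-type library stood over 2-fold below its nodal library. XLOC_020934 stood at 104 and 113 in salt and control S-type, 63.1 and 127 in salt and control L-type, and 109 and 70.1 in salt and control nodal roots. Os06g0255300 was higher, at 1230.1 and 1243.9 in salt and control S-type, 1444.4 and 874.7 in salt and control L-type, and 951.1 and 609.9 in salt and control nodal roots. Os06g0255200 stood at 238.5 and 218.0, 138.6 and 232.8, and 397.4 and 311.6 scaled reads in the same order.

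Many loci without an ID differed in level between S-type and nodal roots. With limma, root type and treatment were fitted as additive terms over the 19469 loci that passed the minimum. Its p-values measure only how evenly a difference repeats over the 6 libraries. By limma with adjusted p under 0.05, 68 of the 533 tested loci without an ID (12.8%) were higher in S-type than in nodal roots, beside 11.3% of all loci. A further 29 (5.44%) were lower, beside 7.74% of all loci. Together the 97 are 18.2%, beside 19% of all loci, so the share that differed was near the background. Their split leaned to S-type roots: the median difference was 0.24 (log2) for loci without an ID and -0.04 for all loci. Of the 97, 70.1% were higher in S-type roots, beside 59.4% of the 3705 called over all loci. With library totals in place of TMM scaling the split was 55.1% of 107, beside 38.4% of 4434. That scaling moved the median of all loci with at least 50 scaled reads by -0.37 under control and -0.48 under salt. The count moved with the libraries kept: 0 were called without the salt nodal, 3 without the control nodal, 53 without the control L-type, 58 without the salt L-type, 112 without the salt S-type and 154 without the control S-type library. Over all loci the share called also fell without either nodal or either L-type library, and rose without the control S-type library. Without the salt S-type library it fell slightly, while that of loci without an ID rose. Without the control S-type library the split turned. More of the called loci were then lower than higher in S-type roots, both among loci without an ID and over all loci. A fit with a library left out draws its error only on root types with both of their libraries. It thus does not show which library the calls rest on.

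XLOC_034794 and XLOC_026661 had the smallest adjusted p of the loci without an ID and few reads in nodal roots. XLOC_034794 (chr11:4476402-4478203, 3360 bp from Os11g0188100) stood at 144 and 108 scaled reads in salt and control S-type, 26.8 and 17.6 in salt and control L-type, and 2.62 and 0.888 in salt and control nodal roots. S-type roots were higher than L-type, and L-type higher than nodal roots, under both treatments. Its S-type minus nodal difference was 5.59 ± 0.60 (log2, SE; limma adjusted p = 0.00795). XLOC_026661 on chromosome 8, whose levels are above, had a difference of 6.39 ± 0.68 with the same adjusted p, and under control, where it had 0 reads in nodal roots, its S-type level was at least 45.2-fold higher, counted against a floor of 3 reads per library. XLOC_022472 (chr6:7729972-7730748, 6618 bp from Os06g0248600) stood at 351 and 274 in salt and control S-type, 10.5 and 25.6 in salt and control L-type, and 1.75 and 9.77 in salt and control nodal roots. Its difference was 5.84 ± 0.72 (limma adjusted p = 0.009997).

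XLOC_035649 (chr11:27355753-27363401, 2535 bp from Os11g0677101) reached the highest level of any locus without an ID in an S-type library. It stood at 1113 and 686 scaled reads in salt and control S-type, 102 and 145 in salt and control L-type, and 3.49 and 25.7 in salt and control nodal roots. Both S-type libraries stood well above the other 4. The fitted difference was 6.32 ± 0.77 (limma adjusted p = 0.00985), and for XLOC_026664 it was 6.61 ± 1.25 (adjusted p = 0.0237). XLOC_005340, on a span shared by 7 loci including Os02g0119000 (chr2:961518-1005369 for the whole span), was high in both L-type and S-type roots. It stood at 355 and 357 in salt and control S-type, 258 and 361 in salt and control L-type, and 54.1 and 51.5 in salt and control nodal roots. The 2 nodal libraries stood apart below the other 4, and the S-type minus nodal difference was 2.73 ± 0.32 (limma adjusted p = 0.00944).

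Among the loci lower in S-type roots, XLOC_014378 (chr4:15941648-15948539, 13539 bp from Os04g0338100) was seen in nodal roots alone. It had 0 reads in the 4 lateral root libraries, against 66.4 and 98.5 scaled reads in salt and control nodal roots. S-type roots were at least 17.2-fold lower under salt and at least 27.6-fold lower under control, against the floor of 3 reads per library. L-type roots were at least 23.1-fold and 37.3-fold lower. All of these folds take the nodal level as counted, without its own counting error. The S-type minus nodal difference was -6.36 ± 0.77 (limma adjusted p = 0.00984). XLOC_014473, which shares its span with Os04g0384200 (chr4:18846171-18850645), stood at 1.29 and 23.8 in salt and control S-type, 16.3 and 15.9 in salt and control L-type, and 354 and 501 in salt and control nodal roots, a difference of -5.81 ± 0.92 (adjusted p = 0.0158).

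XLOC_004084 (chr1:27248108-27250199) lay 160 bp from Os01g0666600, in the other run. It stood at 0 and 8.34 scaled reads in salt and control S-type, 18.2 and 88.2 in salt and control L-type, and 101 and 211 in salt and control nodal roots. Each salt library stood below its control, and each S-type below its nodal library. The S-type minus nodal difference was -5.59 ± 0.71 (limma adjusted p = 0.0104). XLOC_029659 (chr9:18275085-18275564) stood at 0 and 3.57 in salt and control S-type, 0 and 2.65 in salt and control L-type, and 38.4 and 87.9 in salt and control nodal roots, with a difference of -4.79 ± 0.76 (adjusted p = 0.0158). XLOC_000790 (chr1:12150298-12151420) had an S-type minus nodal difference of -3.72 ± 0.86 (adjusted p = 0.0374), and XLOC_008036 one of -5.29 ± 1.38 (adjusted p = 0.0494).

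The fits with L-type roots gave no calls. For L-type against nodal roots limma called 0 of the 533 loci without an ID, beside 0% of all loci. Of the 533, 101 (18.9%) had an unadjusted p under 0.05, beside 16.4% of all loci, while 0 passed in edgeR and 28 (5.25%) in DESeq2, beside 5.06%. Between L-type and S-type roots limma also called 0, beside 0.0103% of all loci, with 116 (21.8%) at an unadjusted p under 0.05, beside 21.9%, 0 by edgeR and 29 (5.44%) by DESeq2, beside 8.63%. For S-type against nodal roots edgeR called 56 (10.5%, beside 13.2%), all among the 97, and DESeq2 109 (20.5%, beside 24.3%), of which 88 were among the 97. The median L-type minus nodal difference was 0.39 (log2) for the 533 and 0.02 for all loci.

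Single pairs of libraries have no test. For them a rule of size says which loci are higher or lower. It asks for a 2-fold difference on log2(scaled reads + 1), for 50 or more scaled reads in 1 of the pair, and for a 95% interval of the ratio, from counting error alone, that excludes 1. A locus that reaches 50 reads only in the library where it is high had to differ, so these counts are descriptions. By this rule 60 of 143 loci without an ID (41.96%) were higher in S-type than in nodal roots under salt, beside 24.8% of all loci, and 36 (25.2%) were lower, beside 22.8%. Under control 67 of 122 (54.9%) were higher, beside 27.3%, and 23 (18.9%) lower, beside 19.6%. With library totals the share higher among those past the rule was 48.2% in place of 62.5% under salt, beside 33.6% in place of 52.1% over all loci. Under control it was 63.1% in place of 74.4%, beside 41.5% in place of 58.2%.

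In L-type roots a lean to the higher side was clear under control, while under salt both directions were more frequent than over all loci. Under salt 28 of 118 (23.7%) were higher than in nodal roots, beside 12% of all loci, and 19 (16.1%) lower, beside 10.5%. Under control 55 of 116 (47.4%) were higher, beside 17.9%, and 25 (21.6%) lower, beside 19.2%. Both control comparisons use the control nodal library, in which the loci without an ID were lowest. Their scaled reads summed to 23867 in salt S-type, 22365 in control S-type, 21126 in salt L-type, 18732 in control L-type, 19095 in salt nodal and 13867 in control nodal roots. Of the 533 tested, 11.8% had their highest level in control nodal roots, beside 22.5% of all loci, and 16.9% in salt L-type roots, beside 11.5%. The S-type pattern repeated over treatments for many: 38 loci were higher than in nodal roots in both pairs, which is 63.3% of those under salt and 56.7% of those under control, beside 72.5% and 66.7% over all loci.

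**Figure D4:**
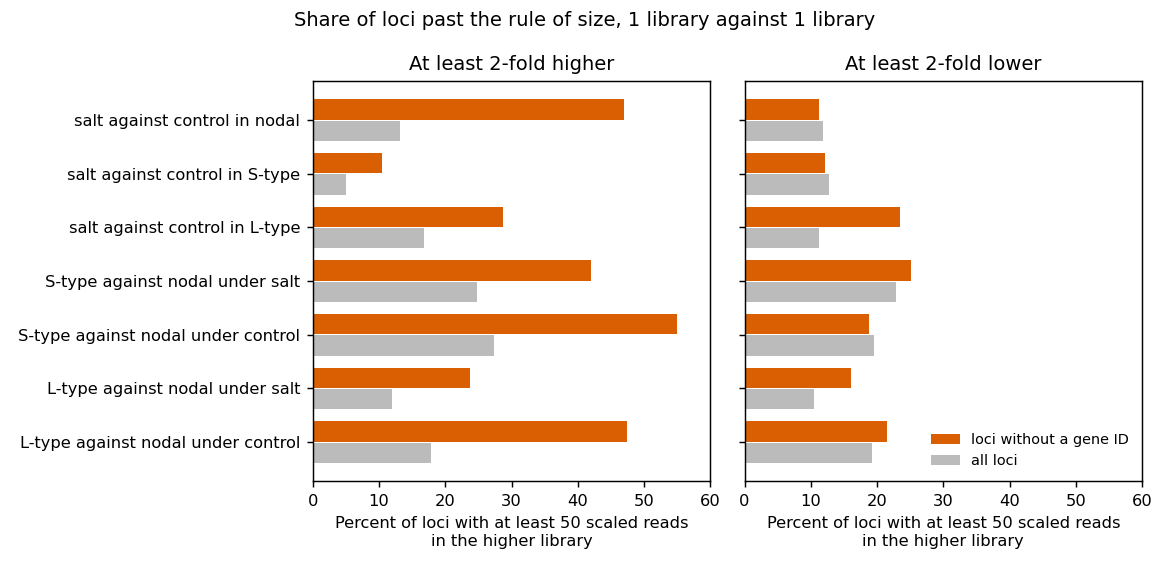
Percent of loci (horizontal axis) at least 2-fold higher (left panel) or lower (right panel) by the rule of size in each pair of libraries; orange bars are loci without a gene ID and grey bars all loci, both with 50 or more scaled reads in 1 of the pair. The largest gaps are on the higher side, as for salt against control in nodal roots (46.9% and 13.1%) and for L-type against nodal roots under control (47.4% and 17.9%). Both of these pairs use the control nodal library.

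Among loci that reached 50 scaled reads in 1 of the pair, the lean to higher levels under salt was widest in nodal roots. In L-type roots both directions were more frequent among them than over all such loci. A mean of 50 scaled reads was reached by 10.6% of loci without an ID and 32.7% of ID loci. Loci that reach 50 only in their higher library may thus weigh more here, and their part in these shares was not tested. In nodal roots 46 of 98 (46.9%) were higher under salt, beside 13.1% of all loci, and 11 (11.2%) were lower, beside 11.9%. The control library of this pair is the one in which the loci without an ID were lowest. The leans of lateral over nodal roots under control share that library, so they are not separate from this one. In L-type roots 39 of 136 (28.7%) were higher, beside 16.8%, and 32 (23.5%) lower, beside 11.3%. In S-type roots 13 of 124 (10.5%) were higher, beside 5.03%, and 15 (12.1%) lower, beside 12.7%. For the 98 nodal, 136 L-type and 124 S-type loci without an ID that reached 50, the median salt minus control differences were 0.90, 0.12 and 0.27 (log2). All loci that reached 50 had medians of -0.06, -0.07 and -0.01, in the same order of root types. The limit given above for the shares holds for these medians too: the part of the minimum of 50 in their contrast was not tested. In a window of 50 to 200 scaled reads, set after most of these loci were seen to lie there, the nodal share was 38 of 82 (46.3%), beside 14% of all loci in it. The photosynthesis list moved with these shares: by the rule 12 of its 16 loci were higher under salt in nodal roots, 9 in L-type roots and 0 in S-type roots.

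Over all 3 root types together no salt difference passed. By limma 0 of the 533 had an adjusted p under 0.05 for salt against control, beside 0% of all loci; 74 (13.9%, beside 12.8%) had an unadjusted p under 0.05, while 0 passed in edgeR and 4 (0.75%, beside 1.99%) in DESeq2, and the smallest limma adjusted p was 0.359. Without the salt S-type library 28 (5.25%, beside 3.48% of all loci) were called higher under salt and without the control S-type library 29 (5.44%, beside 3.67%), of which 27 were the same. Both fits take the salt difference and its error from nodal and L-type roots alone. Those 27 had a median salt difference of 0.25 (log2) in S-type roots; 16 of them were past the rule of size in nodal roots, 13 in L-type roots and 0 in S-type roots.

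The overlap between root types was partial. Higher under salt in both nodal and L-type roots were 15 loci, which is 32.6% of the nodal and 38.5% of the L-type ones, beside 43.7% and 34.1% over all loci. By the rule, 0 of the 199 loci without an ID that could be measured in at least 1 root type were higher under salt in all 3, beside 0.531% of all loci, and 0 were lower in all 3, beside 0.803%. Higher in 1 root type and lower in another were 7 (3.52%), beside 3.05%. Of the 46 higher in nodal roots, 0 were also higher in S-type roots, beside 6.68% over all loci, and 4 (8.70%) were lower there, beside 9.16%.

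**Figure D5:**
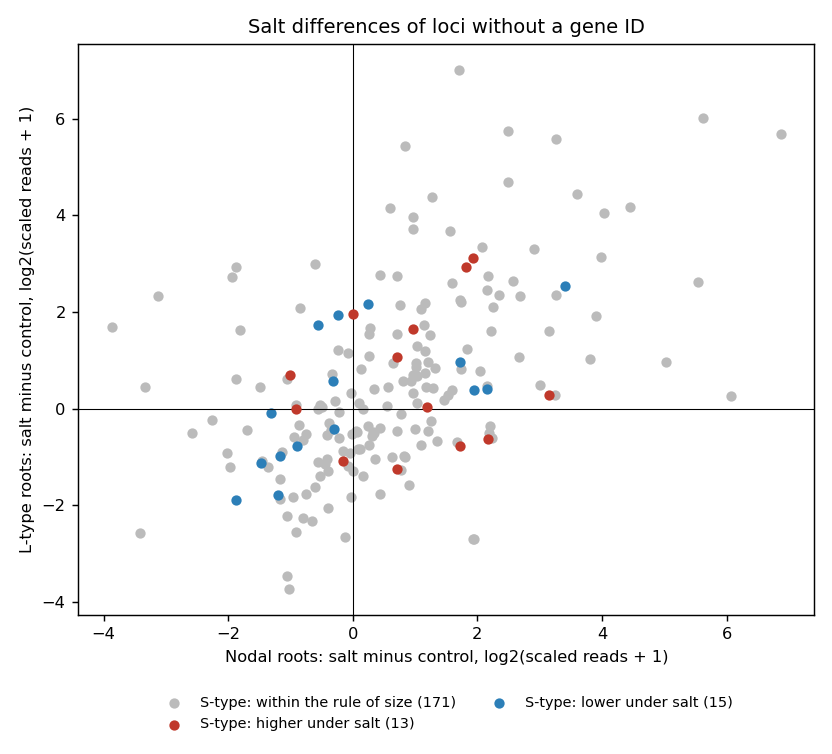
Salt minus control differences (log2 of scaled reads + 1) in nodal roots (horizontal axis) and L-type roots (vertical axis) of the 199 loci without a gene ID that reached 50 scaled reads in any library; colours give the rule of size in S-type roots (13 higher, 15 lower). Of the 199, 88 lie above 0 on both axes and 49 below 0 on both.

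The largest salt difference in nodal roots was that of XLOC_006316 (chr2:20574597-20578019, 8933 bp from Os02g0548100). It stood at 3.87 and 23.8 scaled reads in salt and control S-type, 187 and 2.65 in salt and control L-type, and 220.1 and 0.888 in salt and control nodal roots. It had 1 read in the control nodal library, so the ratio of 248 has a 95% counting interval of 44.1 to 9830. The nearest ID locus on its other side, Os02g0548700, stood at 157.3 and 413.4 in salt and control S-type, 439.7 and 46.7 in salt and control L-type, and 218.3 and 43.5 in salt and control nodal roots. Both were higher under salt in L-type and nodal roots and lower in S-type roots. XLOC_037429 on chromosome 12 was next, with a salt over control ratio of 81.7 (34.7 to 252.8) in nodal roots.

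In L-type roots, XLOC_019164 and XLOC_022885 had the largest differences towards salt among loci that reached 200 scaled reads in either L-type library. XLOC_019164 (chr5:4913766-4914296, 2659 bp from Os05g0181650) stood at 761 and 639.8 scaled reads in salt and control S-type, 312 and 6.17 in salt and control L-type, and 35.8 and 19.5 in salt and control nodal roots. The salt L-type library thus stood between the S-type and the other libraries, with a salt over control ratio of 50.5 (24.2 to 126.6). XLOC_022885 (chr6:20189363-20190187, 10320 bp from Os06g0538400) stood at 79.9 and 144 in salt and control S-type, 271 and 44.1 in salt and control L-type, and 308 and 101 in salt and control nodal roots. Its ratios were 6.16 (4.55 to 8.49) in L-type and 3.05 (2.46 to 3.796) in nodal roots. XLOC_032603 (chr10:12294190-12300640, 2266 bp from Os10g0381601), among the 10 highest, stood at 431 and 326 in salt and control S-type, 344 and 444 in salt and control L-type, and 126 and 26.6 in salt and control nodal roots, a nodal ratio of 4.72 (3.17 to 7.25).

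Other loci were lower under salt. XLOC_030248 (chr9:7093950-7146634 for a span shared by 3 loci without an ID) stood at 9.03 and 207 scaled reads in salt and control S-type, 119 and 236 in salt and control L-type, and 128 and 291 in salt and control nodal roots. Each salt library stood below its control, 23.0-fold in S-type and 2.27-fold in nodal roots. XLOC_004084 was 2.09-fold lower under salt in nodal and 4.85-fold lower in L-type roots. XLOC_013620 (chr3:32127387-32131342, 5520 bp from Os03g0775000) stood at 133 and 119 in salt and control S-type, 120.5 and 317 in salt and control L-type, and 114 and 164 in salt and control nodal roots. It was lower by the rule in L-type roots only, 2.64-fold; this difference between root types was not tested.

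In S-type roots XLOC_032925 (chr10:18613110-18620523, 546 bp from Os10g0490400) was higher under salt. It stood at 262 and 104 scaled reads in salt and control S-type, 27.7 and 67.0 in salt and control L-type, and 16.6 and 9.77 in salt and control nodal roots. The salt over control ratio was 2.53 (1.96 to 3.28) in S-type and 0.414 (0.260 to 0.642) in L-type roots. Lower in S-type roots were XLOC_022319 (chr6:5665818-5667205, 4555 bp from Os06g0210900) and XLOC_005751 (chr2:6544709-6545005, 6423 bp from Os02g0216700). XLOC_022319 stood at 20.6 and 548 in salt and control S-type, 637 and 192 in salt and control L-type, and 16.6 and 24.9 in salt and control nodal roots. XLOC_005751 stood at 41.3 and 430.1 in salt and control S-type, 490.4 and 377 in salt and control L-type, and 410.5 and 106 in salt and control nodal roots. Salt over control ratios in S-type roots were 0.0376 (0.0213 to 0.0618) and 0.0959 (0.0646 to 0.138), in that order of loci. XLOC_005751 spans 296 bp and had the highest mean FPKM of any locus without an ID, 862.9. FPKM need not follow reads over span in short loci. In control S-type roots XLOC_000210 (188 bp) had 339.3 FPKM from 15 reads, and XLOC_000176 (580 bp) had 56.3 FPKM from 71 reads.

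The authors' deposited table holds 15 pairwise comparisons of the 6 libraries. Of the 9304 tested comparisons of loci without an ID, the authors' deposited table marks as significant 64 (0.688%), with q-values between 0.0144 and 0.0487, in 31 loci. Over all loci it marks 0.411% of tested comparisons. All 64 have 0 FPKM on one side, as do 1142 of the 1151 marked over all loci. For salt against control within a root type, the authors' deposited table marks 1 locus without an ID in S-type roots (XLOC_000301), 1 in L-type roots (XLOC_004102) and 0 in nodal roots. XLOC_000301 (chr1:3532611-3533918) had 0 reads in salt against 60.8 scaled reads in control S-type roots. XLOC_004102 (chr1:27546842-27547781) had 128 scaled reads in salt against 0 in control L-type roots, and 199.9 and 143 in salt and control S-type roots. XLOC_014378, with reads in nodal roots alone, is marked in 8 of the 15 comparisons, the most of any locus without an ID.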

How the data were processed

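For every locus the authors deposited a signal in each library (reads over a size factor) and, in a second table, FPKM values with a p-value and a q-value for each of 15 comparisons of the libraries, in Cuffdiff's layout per the file headers. The submitters' processing notes list Cuffdiff 2.2.1, Cufflinks 2.2.1, TopHat2 2.0.11, Bowtie and Trimmomatic 0.32, with build IRGSP-1.0; their roles and settings, strand handling in counting and the treatment of reads shared by near-identical copies are not given in the sources used here.

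Division by each library's smallest step gave whole reads, within 0.01, for 99.90% to 99.98% of values above 0. Reads were scaled with TMM factors (edgeR 4.0.16). limma-trend 3.58.1 (R 4.3.3), two-sided, was fitted to log2(scaled reads + 1) of the 19469 loci that reached 10 reads in 2 or more of the 6 libraries, as root type plus treatment, with 2 residual degrees of freedom from their interaction, and Benjamini-Hochberg adjustment at 0.05 over all loci. edgeR and DESeq2 1.42.0 on the recovered reads were alternatives. A log2 difference with a pseudocount understates the change of low loci. Ratios of 2 libraries carry 95% exact conditional binomial (Clopper-Pearson) intervals, and 0 reads a floor of 3 reads per library. Both cover counting error only, and PCR reads are not independent molecules. A fold given as at least some value sets the higher library's level as counted against that floor, without the counting error of the higher library. The fit and the interval were tested on simulated data.

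Named were the 10 loci with the highest mean, up to 3 per direction with the largest difference for salt in each root type and for S-type against nodal roots (200 or more scaled reads in 1 of the pair), and up to 3 per direction with the smallest adjusted p; loci in neighbouring groups and those the authors' table marks were added after their values were seen. The members and lists were chosen with earlier results of these data known, and the 3 root loci were added after the data were seen. No gene name is given because the files do not pair IDs with names.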

Additional observations from a re-analysis of the deposited data

Results flagged for a closer look

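In 4 loci without an ID that averaged 100 or more scaled reads, salt against control went in opposite directions in 2 root types by the rule of size. With 1 library per group, none of these differences between root types was tested. For XLOC_005751 the salt minus control difference was 1.95 in nodal and -3.35 in S-type roots (log2), 5.30 apart. For XLOC_028939 (chr8:27548009-27549197) it was 2.15 in nodal and -1.51 in S-type roots, 3.66 apart. This locus stood at 132 and 375 scaled reads in salt and control S-type, 139 and 104 in salt and control L-type, and 169 and 37.3 in salt and control nodal roots. For XLOC_030076 (chr9:1246935-1254318, 1466 bp from Os09g0115900) it was 3.41 in nodal roots, 2.54 in L-type roots and -1.40 in S-type roots, so nodal and S-type roots were 4.81 apart and L-type and S-type roots 3.94. It stood at 69.6 and 186 in salt and control S-type, 194 and 32.6 in salt and control L-type, and 236 and 21.3 in salt and control nodal roots. For XLOC_022319 the difference was 1.72 in L-type roots and -4.67 in S-type roots, 6.39 apart. In each of the 4 the S-type side was the lower one under salt. This does not hold for loci below that mean: of all 7 with opposite directions, 2 were higher in S-type and lower in L-type roots.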

How the results depend on the processing

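No paired analysis was possible because the labels give no replicate numbers that pair libraries; the additive fit already sets salt against control within each root type. Leaving out 1 library at a time gave 0 to 154 calls for S-type against nodal roots in place of 97, 0 to 54 for L-type against nodal, 0 to 61 for L-type against S-type and 0 to 30 for salt, all in place of 0. The number of libraries was smaller in each. For S-type against nodal roots edgeR called 56 (10.5%, beside 13.2% of all loci). DESeq2 called 28 (5.25%, beside 5.06%) for L-type against nodal and 29 (5.44%, beside 8.63%) for L-type against S-type. For salt it called 4 (0.75%, beside 1.99%). A pseudocount of 5 gave 11 (2.06%, beside 2.43%) for L-type against S-type. The cause was not tested. A minimum of 20 scaled reads, which admits more loci, put 147 (nodal), 96 (S-type) and 170 (L-type) past the rule of size for salt, in place of 57, 28 and 71. Of the loci measured these were 56.8%, 31.4% and 55.0%, in place of 58.2%, 22.6% and 52.2%. For S-type against nodal roots it put 227 (65.4%) under salt and 206 (72.0%) under control past it, in place of 96 (67.1%) and 90 (73.8%). For L-type against nodal roots these were 135 (44.3%) and 177 (68.1%), in place of 47 (39.8%) and 80 (69.0%). Counts over all loci rose too, as for salt in nodal roots to 4530 in place of 3228. Among loci that averaged 10 or more scaled reads, 156 of 411 lay within 1 kb of an ID locus, in place of 305 of 828. The other 59 values stayed within 1.5 times of the main count: 42 from other scalings, filters, pseudocounts, FPKM and distances, 13 with 1 library left out and 4 from edgeR or DESeq2. Where the main count was 0 these values were 0 too, so they say nothing on how stable a count is. With 1 library left out this holds for all of them but S-type against nodal roots without the salt S-type library. It also holds for the values from edgeR, while DESeq2 called 109 for S-type against nodal roots in place of 97.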
